A study of Arabidopsis thaliana with 42 samples.

Results

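Across a series of 42 expression arrays from Arabidopsis thaliana seedlings, 26 of 22746 probe sets gave a lower signal in all 4 higher order mutant lines than in their own Col controls, with the limits described here. A probe set is the group of short oligonucleotides on an Affymetrix array that measures a transcript together. The 26 were chosen from the measured values. The group mean of each of the lines penta, hexa, hepta and miR had to lie at least 0.4 log2 units below the mean of the 3 Col arrays of the same set. In addition, the mean of the single lines acs2B and acs6E could not exceed that of acs2C and acs9B by 1 log2 unit or more. The first condition held for 62 probe sets, the limit removed 34 of them, and 2 more were left out by gene name (ASPGB1 and UGT78D1). The names to leave out also included DFR and CHIL.

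The arrays measured RNA from whole seedlings grown for 10 days in the light, after 2 days of cold at 4 C, at 25 C with 16 h of light and 8 h of dark. One set held 27 arrays, 3 of Col and 3 of each line labelled a single mutant. These lines were acs1A, acs4A, acs6E, acs9B and 2 pairs with a shared number, acs2B with acs2C and acs5C with acs5D. The other set held 15 arrays, with 3 each of a separate Col control and of penta, hexa, hepta and miR, labelled higher order mutants. The titles number the arrays as biological replicates and no label says more about how they were grown apart, so the p-values below measure the spread between these samples. The labels give no alleles, crosses or constructs, no age other than 10 days, and no more on the line miR than its name. Signals of the mutated genes themselves could not be picked out here, because no probe set was named for any ACC synthase gene. Whether a probe set without a named gene, members included, measures a mutated gene was not tested.

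The lines carry the names of ACC synthase (ACS) genes or stand for combined mutants. ACC synthase turns S-adenosylmethionine into ACC, the precursor of the plant hormone ethylene, and this is usually the limiting step of ethylene synthesis. ACC oxidase then releases the gas, which membrane receptors sense and which alters growth, ripening, senescence and stress responses. Arabidopsis has a family of ACS proteins that act as dimers, and the study addresses how the members of that family act in combination.

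Of the 26 probe sets, 10 were matched to 1 gene and 16 had no gene named here. A symbol was given for 4 of the 10. ARR15 encodes a type-A response regulator, a class of proteins induced by cytokinin that dampens cytokinin signalling. UF3GT encodes a glycosyltransferase of anthocyanin synthesis, MYR2 a MYB-related transcription factor, and ACT11 an actin of the cytoskeleton. The other 6 carried only locus codes, AT1G74770, AT1G79770, AT5G62210, AT1G01390, AT3G10840 and AT4G14090, and no role is given to them. By their codes, 4 of the 10 genes lie on chromosome 1, 3 on chromosome 3, 1 on chromosome 4 and 2 on chromosome 5. The pair nearest to each other, AT1G74770 and ARR15, had 12 protein-coding genes between them in the RefSeq gene order of the TAIR10.1 assembly.

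Values are the authors' deposited log2 levels, and normalization was probably run on each set alone, since array medians were 6.77 to 6.84 in the single set and 6.24 to 6.32 in the higher order set. Levels are therefore compared only within a set. Labelling and hybridization controls, transcripts added by the array protocol or read from bacterial genes, differed between each single line and its Col for 29 to 41 of 45 probe sets (limma, adjusted p below 0.05), but for 0 of 45 in penta, hexa and hepta and 3 of 45 in miR. In a comparison of a single line with Col, genotype and labelling or hybridization cannot be told apart. Of 6 cell type markers with a named probe set, RCA of leaf photosynthesis and PYK10 of the root and hypocotyl stood at or above the 99.8 percentile of all probe sets in the higher order Col arrays. CLV3 of the shoot stem cells stood at the 14.3 percentile. Of the 3 flower and pollen markers, AGL66 stood at the 13.5 and MGH3 at the 25.96 percentile, but SCPL49 at the 85.3 percentile. None of these 6 differed from Col in the 4 higher order lines. In whole seedlings, fewer cells of a type and less RNA per cell cannot be told apart.

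In the higher order set the typical member lay 0.68 log2 units below Col over the 4 lines. The median difference of the 26 was -0.54 in penta, -0.60 in hexa, -0.71 in hepta and -0.70 in miR, where the median of all probe sets lay between -0.0033 and 0.0213. In 22 of the 26, all 12 line arrays lay below all 3 Col arrays. The same was true of 1.82% of all probe sets tested, and since the rule used this contrast nothing is read from the difference. Counted by line, all 3 arrays were below all Col arrays for 25 members in penta, 24 in hexa, 25 in hepta and 24 in miR, against 10.2%, 10.3%, 12.8% and 13.9% of all probe sets. The 4 members with some overlap were 254550_at, 263549_at, 254283_s_at and 246633_at.

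**Figure D1:**
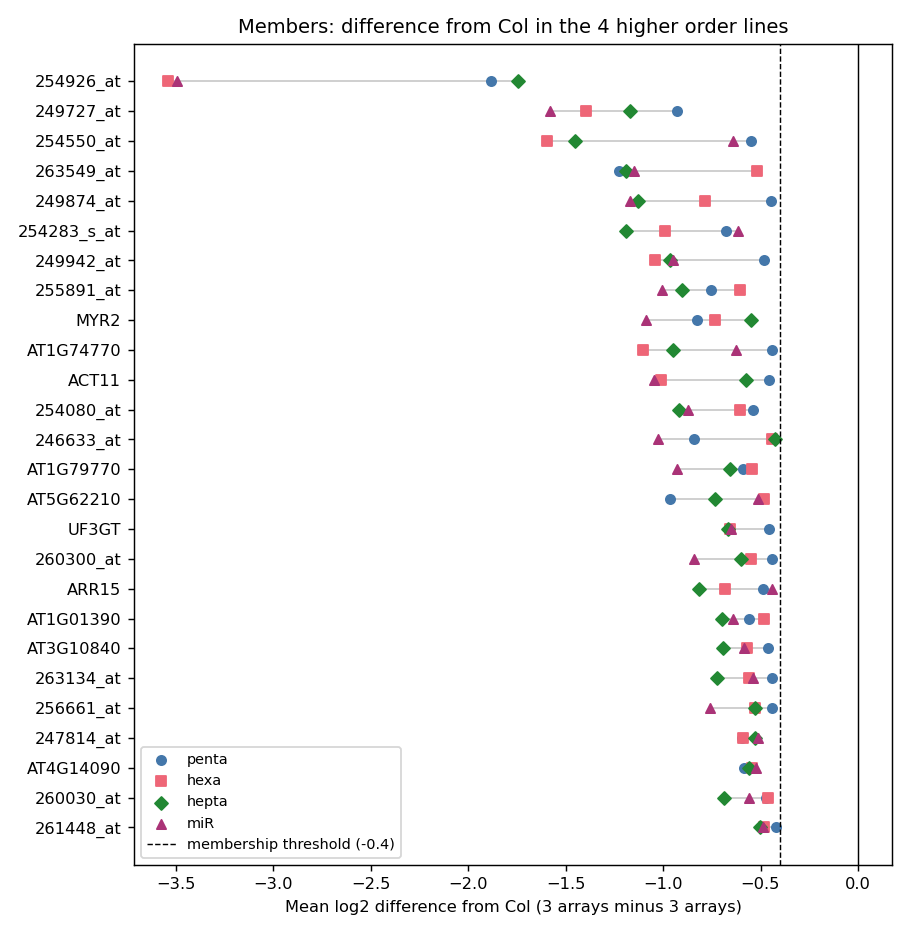
Difference from the mean of the 3 Col arrays (log2 units, horizontal axis) for each of the 26 members (rows) in penta, hexa, hepta and miR, 1 point per line as the mean of 3 arrays, with a line at the threshold of -0.4. The probe set 254926_at stands far to the left with a mean of -2.67, and most other members lie between -0.4 and -1.

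The probe set 254926_at, with no gene named here, had the lowest values relative to Col. Its 3 Col arrays read 7.68, 8.26 and 7.29. The penta arrays read 5.80, 5.77 and 6.01 and the hepta arrays 5.93, 6.06 and 6.0. The hexa arrays read 4.26, 4.28 and 4.07 and the miR arrays 4.38, 4.08 and 4.29. Thus hexa and miR formed a lower pair and penta and hepta a middle pair, and no array of a line reached the Col range. The mean difference over the 4 lines was -2.67. In hexa and miR the probe set stood at the 24.6 and 25.4 percentiles of all probe sets, where background limits the reading, so that difference is best read as a lower bound.

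Next came 249727_at, also without a named gene, at -1.27 over the 4 lines. Its Col arrays read 5.40, 5.26 and 5.44, the penta arrays 4.42, 4.41 and 4.49, and the hepta arrays 4.27, 4.26 and 4.05. The hexa arrays read 3.96, 4.02 and 3.93 and the miR arrays 3.85, 3.84 and 3.67. The groups did not overlap with Col, and miR held the 3 lowest values. It stood at the 19.9 percentile of all probe sets in hexa and the 15.3 percentile in miR, so the same limit holds.

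For 254550_at, at -1.06 over the lines, the groups were less uniform. Col read 8.91, 8.71 and 8.54, hexa 7.24, 7.01 and 7.12, and hepta 6.81, 7.66 and 7.32. In penta 2 arrays stayed close to Col at 8.51 and 8.33 while the third read 7.67. In miR 2 arrays, at 8.54 and 8.62, lay at the lower end of Col and the third read 7.07, so the miR mean rested on replicate 3.

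For 263549_at, at -1.02, the spread within Col was itself wide, at 7.61, 6.65 and 7.79. Penta read 5.46, 6.16 and 6.77, hexa 7.02, 6.88 and 6.61, hepta 6.08, 5.94 and 6.47, and miR 6.28, 5.88 and 6.45. All arrays of hepta and miR lay below Col, while 1 penta array and 2 hexa arrays did not.

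Among the genes with a symbol, the cytokinin response regulator gene ARR15 read 5.45, 5.06 and 5.28 in Col. It read 4.71, 4.73 and 4.88 in penta, 4.61, 4.47 and 4.65 in hexa, 4.52, 4.32 and 4.50 in hepta, and 4.80, 4.91 and 4.74 in miR. All 12 line arrays lay below Col, with hepta lowest and miR nearest to Col, and the mean difference was -0.61.

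For the actin gene ACT11, the arrays within each of penta, hexa and hepta lay close together. Its Col arrays read 8.48, 8.34 and 8.53 and its penta arrays 7.96, 8.01 and 8.01. Hexa read 7.47, 7.46 and 7.39, hepta 7.87, 7.85 and 7.89, and miR 7.59, 7.42 and 7.19. Every line stood apart from Col, penta and hepta by about the same amount and hexa and miR further down, for a mean of -0.77.

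MYR2, the MYB-related factor gene, read 5.62, 5.40 and 5.22 in Col. It read 4.61, 4.48 and 4.67 in penta, 4.63, 4.65 and 4.75 in hexa, 5.08, 4.75 and 4.77 in hepta, and 4.40, 4.08 and 4.49 in miR. The line arrays again lay below all Col arrays, with miR lowest and hepta nearest to Col.

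UF3GT, the anthocyanin glycosyltransferase gene, read 6.15, 6.20 and 6.04 in Col. It read 5.89, 5.59 and 5.54 in penta, 5.63, 5.51 and 5.28 in hexa, 5.51, 5.63 and 5.24 in hepta, and 5.46, 5.27 and 5.70 in miR. Its lines overlapped with each other, and none of their arrays reached the Col values. One RefSeq synonym of this gene carries a UGT name, so reading the name rule over the RefSeq synonyms as well would leave 25 members. Gene names from other sources were not read, for this gene or for those with locus codes only.

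**Figure D2:**
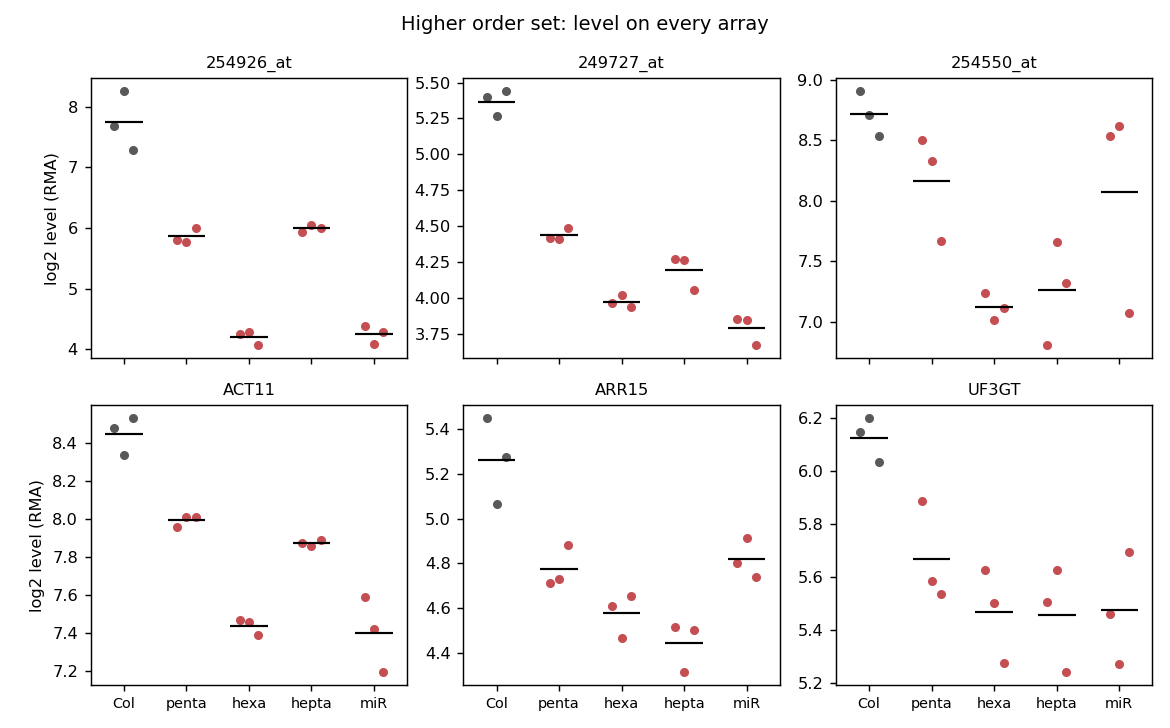
Log2 level on each of the 15 higher order arrays (points, vertical axis) by group (horizontal axis) for 254926_at, 249727_at, 254550_at, ACT11, ARR15 and UF3GT, with the group mean as a bar. The hexa and miR points of 254926_at sit near 4.2 while Col sits above 7.2, and in 254550_at 2 of the 3 miR points lie at the lower end of the Col points.

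Among the genes with locus codes only, AT1G74770 varied most between the lines. Its Col arrays read 7.22, 7.23 and 7.13, penta 6.93, 6.83 and 6.49, and miR 6.60, 6.96 and 6.13. Hexa read 5.94, 6.10 and 6.23 and hepta 6.13, 6.31 and 6.29, so those lines lay lowest while penta stayed nearest to Col. At the other end, AT4G14090 showed the same mean in every line to within 0.06. It read 5.58, 5.71 and 5.53 in Col and between 4.87 and 5.25 on the 12 line arrays. AT3G10840 read 8.88, 8.94 and 8.98 in Col. Its line arrays ran from 8.21 to 8.52, all below Col. The remaining 3 had mean differences of -0.68 (AT1G79770), -0.67 (AT5G62210) and -0.60 (AT1G01390).

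The 12 other probe sets without a named gene had means over the 4 lines between -0.47 (261448_at) and -0.88 (249874_at). Penta was the line nearest to Col for 13 of the 26 members, hexa for 6, miR for 4 and hepta for 3. The lowest line was hepta for 9 members, miR for 9, hexa for 4 and penta for 4. The range over the 4 lines was widest for 254926_at, at 1.79, and was 0.08 for 261448_at and 247814_at. None of the members lay below the 25th percentile of all probe sets in the Col arrays of either set, but 10 of the 26 lay below the median of the higher order Col arrays and 14 below that of the single set Col arrays. In the higher order lines, 254926_at, 249727_at and AT1G01390 each lay below the 25th percentile in at least 1 line.

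At the threshold, the members just inside were 261448_at (-0.42 in penta), 246633_at (-0.43 in hepta) and 256661_at (-0.44 in penta). Just outside were 249490_s_at (-0.40 in hepta), DFR (-0.40 in miR) and 253502_at (-0.39 in miR). Of the 62 probe sets lowered in all 4 lines, 60 were higher in acs2B and acs6E than in acs2C and acs9B, with a median of 1.03 and a maximum of 4.59, against 44.5% of all probe sets. Those kept as members still had a median of 0.50, from -0.33 to 0.99, and 24 of the 26 were above 0. These values chose the members and are given with no test. Membership also depended on the Col arrays, because leaving out Col replicate 2 gave 43 members, and leaving out Col replicate 1 or 3 gave 33 each, of which 21 were among the 26. ARR15 and AT5G62210 were lost without Col replicate 1, and AT1G74770, UF3GT and 254550_at without penta replicate 3. Without miR replicate 3, AT5G62210 and 254550_at were lost. No hepta array removed a member when left out.

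A list of genes of flavonoid synthesis, the pathway that UF3GT serves, was read beside the members, and 4 of its 18 entries had a named probe set. Genes of the pathway outside that list were not counted. DFR, which makes leucoanthocyanidins, was lower in penta (-0.68 ± 0.17 SE), hexa (-1.29 ± 0.17) and hepta (-1.33 ± 0.17). In miR it stood at -0.40 and did not pass the limma threshold. CHIL, a chalcone isomerase-like protein gene, was lower in all 4 lines, from -0.51 ± 0.12 SE in penta to -1.31 ± 0.12 in hexa. CHIL met the 0.4 condition of the rule on these same arrays, and DFR met it in penta, hexa and hepta. The values of both are therefore given with no p. CHI, the chalcone isomerase gene, was lower in miR (-0.64 ± 0.10, limma, adjusted p = 0.00016) and higher in hepta (0.38 ± 0.10, adjusted p = 0.016). BAN, which acts in proanthocyanidin synthesis, passed the test in none of the lines. Thus 2 of 4 were past the limma threshold as lower in each line, and 1 as higher in hepta. Of all probe sets, 1.13% were lower in penta, 3.61% in hexa, 5.08% in hepta and 8.61% in miR. In the same order, 2.08%, 4.44%, 6.96% and 12.3% were higher. Neither DFR, which missed the threshold in miR, nor CHIL, which exceeded the limit at 1.03, met the rule for the 26. Both were also among the names to leave out, so nothing is read from these counts.

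The threshold of 0.4 did not use the single set, but the limit used the arrays of acs2B, acs6E, acs2C and acs9B. For these 4 lines the differences from Col and the counts past the limma threshold are therefore given as a description, with no p, and nothing is read from their distance to the background. Compared with Col, acs6E had 15 members higher and 2 lower, where 13.4% of all probe sets were higher and 15.5% lower (limma, adjusted p below 0.05 over all probe sets). In acs2B 9 members were higher and 2 lower, against 10.2% and 12.5%. In acs2C 12 were lower and 1 higher, against 14.5% and 12.1%, and in acs9B 10 were lower and 2 higher, against 14.7% and 10.9%. All comparisons share the 3 Col arrays. Without Col replicate 3, acs6E replicate 1 or acs6E replicate 3, the count higher in acs6E was 9. Without Col replicate 2 the count lower in acs2C was 5, and without acs2C replicate 3 it was 6. The count higher in acs2C was 3 without Col replicate 1 and 2 without acs2C replicate 3. The 2 members lower in acs2B fell to 1 without Col replicate 2 or acs2B replicate 1, and to 0 without Col replicate 3 or acs2B replicate 3. The median difference of the members was 0.35 in acs6E, 0.26 in acs2B, -0.29 in acs2C and -0.25 in acs9B, with all probe sets between -0.03 and -0.004.

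The other 4 single lines took no part in the rule. In them between 2 and 5 members were called in each direction, and read against the background these counts are no result about the members. Against Col, 3 were lower and 4 higher in acs1A (12.5% and 8.83% of all probe sets), 5 lower and 3 higher in acs4A (10.7% and 9.57%), 2 and 2 in acs5C (10.5% and 8.66%), and 3 and 4 in acs5D (10.3% and 7.35%). For the mean of the 8 lines the counts were 3 lower and 4 higher, against 16.5% and 12.4%. The acs4A count moved from 5 lower to 3 without acs4A replicate 1 or Col replicate 2, and to 8 without acs4A replicate 3. Its count higher moved from 3 to 1 without acs4A replicate 2, acs4A replicate 3 or Col replicate 3. The acs1A count lower was 5 without Col replicate 1, the acs5D count higher was 2 without Col replicate 3, and the count higher for the mean was 2 without Col replicate 2 or 3. In acs5C the count higher was 1 without Col replicate 2 or 3 or acs5C replicate 2 or 3, and the count lower was 1 without acs5C replicate 2. Replicate 1 of acs4A was the array farthest from its group mates in the set, and the members' median SD was 0.32 in acs4A against 0.17 in Col.

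**Figure D3:**
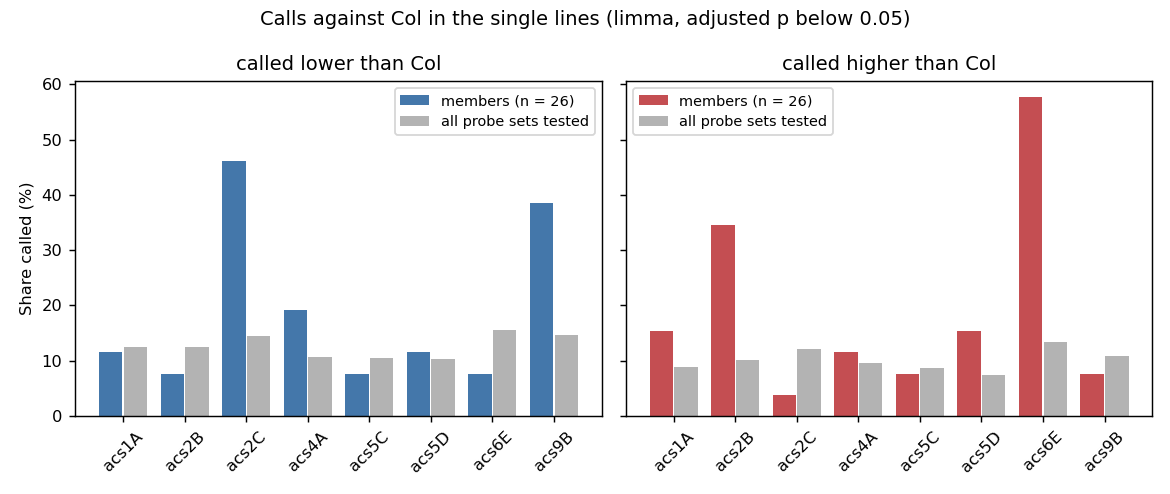
Share (percent, vertical axis, bars from 0) called lower (left) or higher (right) than Col in each of the 8 single lines (limma, adjusted p below 0.05), coloured for the 26 members and grey for all probe sets tested. The coloured bar for higher calls is tallest in acs6E (15 of 26) and that for lower calls in acs2C (12 of 26). Bars of acs2B, acs6E, acs2C and acs9B are a description, since the rule used these lines.

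The Col arrays can be left out of the description. Against the mean of the other 7 lines, 24 of the 26 members lay above 0 in acs6E, with a median of 0.44, and 25 of 26 in acs2B, with a median of 0.32. In acs2C 25 lay below 0, with a median of -0.26, and in acs9B 24, with a median of -0.28. Of all probe sets, 53% lay below 0 in acs6E, 49.3% in acs2B, 46.7% in acs2C and 44.5% in acs9B. The rule used the difference between these lines, so no test is given and nothing is read from these counts. The highest of the 8 line means was that of acs6E for 18 members and of acs2B for 5. For that count no share over all probe sets was computed.

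**Figure D4:**
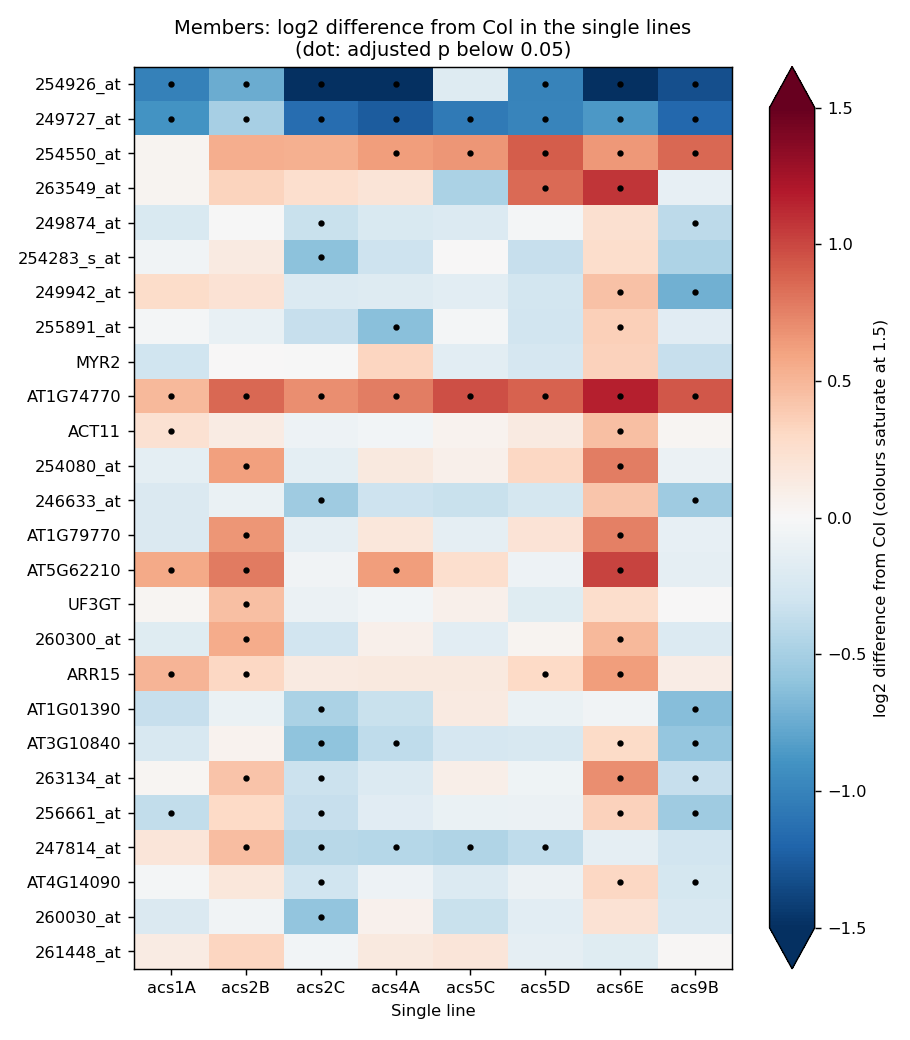
Difference from the mean of the 3 single set Col arrays (log2 units, colour scale) for the 26 members (rows) in the 8 single lines (columns), each cell the mean of 3 arrays, colours saturating at 1.5 and dots marking adjusted p below 0.05 (limma). The rule used acs2B, acs6E, acs2C and acs9B, so dots in those columns are a description and not a test. Most rows are higher in acs6E and acs2B and lower in acs2C and acs9B, while 254926_at and 249727_at are lower in nearly every column and AT1G74770 is higher in all.

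The member lowest in the higher order lines, 254926_at, was also lower in most single lines. With no gene named for this probe set, whether it measures a gene mutated in these lines was not tested. The single set Col arrays of 254926_at read 8.19, 8.88 and 9.16, and the acs6E arrays 5.80, 5.65 and 5.85. That puts acs6E at -2.98 ± 0.27 SE. The difference was -1.75 in acs2C and -1.32 in acs9B. By test it was lower in acs4A (-1.54 ± 0.27 SE, limma, adjusted p = 0.000219), acs1A (-1.01 ± 0.27, adjusted p = 0.0082) and acs5D (-1.0 ± 0.27, adjusted p = 0.0105). Leaving out Col replicate 3 lost the calls in acs1A (adjusted p = 0.055) and acs5D (adjusted p = 0.0652). The acs2B arrays read 7.10, 8.69 and 8.20, so that 2 of them lay within the Col range. In acs5C the arrays read 8.50, 8.63 and 8.52, within the Col range, at -0.19. Set against the other 7 lines, acs5C was higher by 1.28 ± 0.20 SE (adjusted p = 0.000327), with an adjusted p of at most 0.00841 under the alternatives.

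249727_at was below Col in all 8 lines, from -0.50 ± 0.15 SE in acs2B to -1.25 ± 0.15 in acs4A (limma, adjusted p = 2.41e-06). The Col arrays read 6.74, 6.32 and 7.13, and the 24 line arrays lay between 5.14 and 6.30. No line array reached the lowest Col array, but the acs2B arrays at 6.27, 6.30 and 6.14 came within 0.2 of it. The mean of the 8 lines was -0.98 ± 0.11 SE (adjusted p = 5.58e-07).

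AT1G74770 went the other way in the single set. Its Col arrays read 6.80, 6.73 and 6.49, and all 24 line arrays lay above them, from 7.04 in acs1A to 7.89 in acs6E. Differences ran from 0.49 ± 0.10 SE in acs1A (limma, adjusted p = 0.00165) to 1.17 ± 0.10 in acs6E, and the mean of the 8 lines was 0.84 ± 0.08 (adjusted p = 2.78e-08). The calls in acs1A, acs4A, acs5C, acs5D and the mean were kept under every alternative run. None of those alternatives adjusted for the control transcripts that differed between the lines and Col. The higher order lines, where the rule chose members for lower means, had this gene below their own Col on all 12 arrays. The difference between the sets was not tested. Among the 8 lines, acs1A was below the other 7 by 0.41 ± 0.08 SE (adjusted p = 0.0027), a call lost with the level of the bioC hybridization controls as a term or without acs1A replicate 2. That term rests on the arrays of acs2B alone, the only line with both a high and a low bioC level.

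For ARR15, the cytokinin response regulator gene, every array of acs6E, acs1A, acs2B and acs5D stood above the Col arrays. Its Col arrays read 5.16, 5.51 and 5.28. The acs6E arrays read 5.87, 6.08 and 5.89 (0.63 ± 0.10 SE) and the acs1A arrays 5.89, 5.69 and 5.89 (0.51 ± 0.10, limma, adjusted p = 0.000698). In acs5D the difference was 0.30 ± 0.10 (adjusted p = 0.0371), a call lost without Col replicate 1 and without Col replicate 3, among other alternatives, with adjusted p up to 0.185. In acs2B it was 0.31 ± 0.10.

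ACT11 varied little. Its Col arrays read 8.73, 8.69 and 8.73 and the acs6E arrays 9.14, 9.19 and 9.16, 0.45 ± 0.06 SE above Col. The acs1A arrays were higher as well, by 0.23 ± 0.06 (limma, adjusted p = 0.0084), a call lost without acs1A replicate 2 or when only 6 arrays were fitted, with adjusted p up to 0.0898. UF3GT read 6.50, 6.43 and 6.55 in acs2B against 5.95, 6.17 and 5.99 in Col, a difference of 0.46 ± 0.13 SE, and stood at 0.26 in acs6E. It passed no test against Col in the 4 lines outside the rule. Nor did MYR2, where its Col arrays ranged from 4.49 to 5.45. Its differences lay between -0.35 in acs9B and 0.34 in acs6E.

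Of the genes with locus codes, AT5G62210 and AT1G79770 lay above Col on every array of acs6E and acs2B. AT5G62210 lay 1.02 ± 0.18 SE above Col in acs6E and 0.78 ± 0.18 in acs2B, with acs6E arrays at 7.89, 7.58 and 7.80 against Col at 6.95, 6.66 and 6.60. By test it was higher in acs1A (0.57 ± 0.18, limma, adjusted p = 0.0218) and acs4A (0.63 ± 0.18, adjusted p = 0.0129), and both calls were lost without Col replicate 3, among other alternatives. AT1G79770 read 7.36, 7.42 and 7.46 in acs6E and 7.56, 7.16 and 7.25 in acs2B, against 6.64, 6.67 and 6.66 in Col. Those are differences of 0.76 ± 0.12 SE and 0.66 ± 0.12.

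AT3G10840 read 8.41, 8.41 and 8.45 in acs2C and 8.58, 8.48 and 8.29 in acs9B, all below the Col arrays at 8.88, 9.17 and 9.02. The differences were -0.60 ± 0.11 SE and -0.58 ± 0.11, and in acs6E the value was 0.29 ± 0.11 above Col. By test it was lower in acs4A (-0.38 ± 0.11, limma, adjusted p = 0.0138), a call lost without Col replicate 2 or acs4A replicate 1, among other alternatives, with adjusted p up to 0.269. AT1G01390 stood at -0.64 ± 0.16 in acs9B and -0.48 ± 0.16 in acs2C. For AT4G14090 the values were -0.29 in acs2C, -0.26 in acs9B and 0.31 in acs6E, each ± 0.10 SE.

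**Figure D5:**
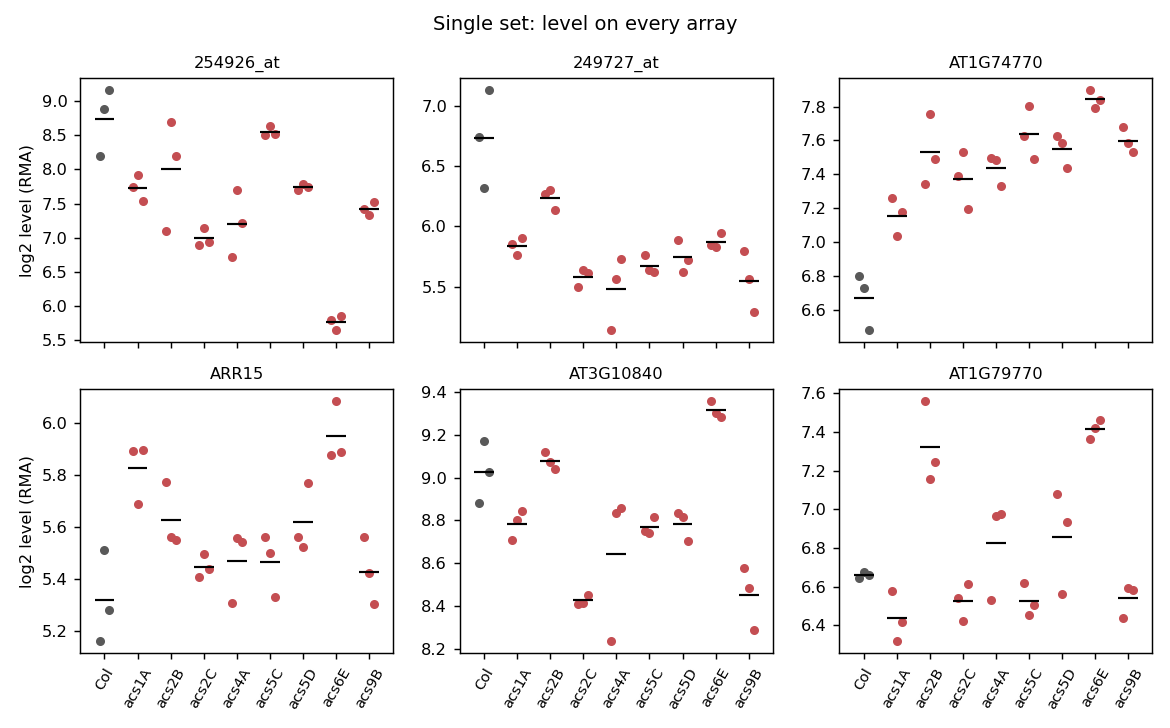
Log2 level on each of the 27 single set arrays (points, vertical axis) by group (horizontal axis) for 254926_at, 249727_at, AT1G74770, ARR15, AT3G10840 and AT1G79770, with the group mean as a bar. The acs6E points are the lowest for 254926_at, near 5.8, and the highest for AT1G74770, at 7.79 to 7.89.

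254550_at was higher than Col in acs5D, where the arrays read 9.48, 9.21 and 9.19 against 8.97, 8.04 and 8.14 in Col (0.91 ± 0.21 SE, limma, adjusted p = 0.00394). That call was kept under every alternative run, none of which adjusted for the control transcripts that differed from Col. The calls in acs4A (0.63 ± 0.21, adjusted p = 0.0376) and acs5C (0.66 ± 0.21, adjusted p = 0.0306) were lost without Col replicate 2 and without Col replicate 3, among other alternatives, with adjusted p up to 0.184. In acs9B the difference was 0.86 ± 0.21. Col replicate 1 of this probe set lay within the range of the lines.

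Differences among the single lines do not involve the Col arrays, although these arrays enter the estimate of spread behind each SE and p. Against the mean of the other 7, acs1A had 4 members lower and 3 higher (limma; 2.45% and 2.69% of all probe sets), acs5C 2 and 2 (1.26% and 2.62%), acs4A 2 and 0 (1.33% and 2.1%), and acs5D 0 and 1 (0.501% and 0.55%). At an unadjusted p below 0.05, acs4A had 6 members lower and 3 higher, and acs5D 5 lower and 2 higher. No share over all probe sets was computed at that threshold, so nothing is read from these counts. Control transcripts differed in these comparisons as well, for 4 to 12 of 45 probe sets. With the level of the bioC controls as a term, the counts were 1 lower and 1 higher in acs1A, 0 in both directions in acs4A and acs5D, and 1 lower and 1 higher in acs5C. The 3 members called higher in acs1A without that term, 247814_at, 249942_at and ARR15, all lost their call with it. Among the lines only acs2B held both a high (replicate 2) and a low bioC level, so the term rests on its arrays alone. It cannot separate the other lines from their bioC level, and nothing is read from the calls lost with it. Without acs1A replicate 2 the acs1A counts were 0 lower and 0 higher, and without acs1A replicate 1 the count higher was 0. For acs4A, 1 was lower without replicate 1 or 2, and 3 were higher without replicate 1. For acs5C, 0 were lower without replicate 2 and 1 without replicate 1 or 3, and 1 was higher without replicate 2 or 3. The acs5D count was 0 without any 1 of its arrays.

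Between acs5C and acs5D, the lines that share the name of a gene, 1 member differed, 263549_at, where 0.703% of all probe sets were lower and 1.59% higher. It read 6.44, 6.17 and 6.40 in acs5C and 7.63, 7.52 and 7.85 in acs5D, a difference of -1.33 ± 0.22 SE (limma, adjusted p = 0.00103). No array of acs5C came near those of acs5D, and 10 of 45 control transcripts differed between the same lines. With the bioC level as a term the adjusted p was 0.0716. The acs5C arrays were all low in bioC and the acs5D arrays all high, and the term rests on acs2B arrays alone. It therefore cannot separate these lines from their bioC level. Beside its own Col, at 7.50, 6.57 and 6.36, the acs5D arrays were higher by 0.85 ± 0.22 (adjusted p = 0.00868), a call lost without Col replicate 3, and acs6E lay 1.07 ± 0.22 above Col.

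None of the 26 probe sets belonged to the 22 lists of pathway and reference genes read beside them, in which 50 of 321 entries had a named probe set, or to the 4 lists of cell type markers. Only the 10 members with a named gene could match, since 16 had none. The flavonoid list did not hold UF3GT either, so the lack of matches is not a lack of pathway genes. The 4 reference genes with a named probe set, used elsewhere to normalize expression, were called in none of the 4 higher order lines.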

How the data were processed

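RNA of 42 seedling samples was labelled from 10 ug of total RNA and hybridised to 1 Affymetrix array each. The values are the authors' deposited log2 expression levels, made with RMA per the submitters' processing notes in a version not given in the sources used here, and which arrays entered 1 run is not stated there either. RMA subtracts background, normalizes by quantiles and summarises probes. Of 22810 probe sets, 64 controls were left out and 22746 tested, of which 13513 had 1 gene in the platform annotation, 503 several and 8730 none. No probe set with several genes was named.

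Members were found by the stated thresholds. Differences in the single set were fitted over all 22746 probe sets with limma 3.58.1 in R 4.3.3 (lmFit, eBayes, all 27 arrays, no filter), with Benjamini-Hochberg adjustment over all probe sets and a threshold of 0.05. Higher order values of genes that are not members came from the same fit on 15 arrays. Members and gene lists were chosen with earlier results of these data known. All 26 members are reported, and members are named in full where a symbol or locus code is given or where the difference is 1 log2 unit or more. No sequence was used here.

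In data simulated for acs1A against Col with 200 changed among 22746 probe sets, 80% of changes of 0.5 and 98% of changes of 1 were recovered with 13 false calls. The simulated arrays held no labelling or hybridization shift between groups, so these rates do not cover such a shift. In the measured arrays 40 of 45 control transcripts differed in this comparison. Alternatives were a replicate block, leaving out each array, the 6 arrays of a line and Col alone, a second quantile normalization, a filter on dim probe sets, eBayes with trend and robust settings, the bioC control level as a term, and other thresholds of membership. The bioC term was fitted with Col left out, so no comparison with Col was run with it. Among the lines only acs2B held both a high and a low bioC level, so its arrays alone set the term. With 3 arrays in a group, precision is limited by their number. Replicate numbers were checked for pairing, and deviations of same-numbered arrays from their group means had a median correlation of 0.0089 in the single set and 0.0314 in the higher order set.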

Additional observations from a re-analysis of the deposited data

Results flagged for a closer look

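AT1G74770 lay below Col on all 12 arrays of the higher order lines, with a mean difference of -0.78, and above Col on all 24 arrays of the single lines, with a mean difference of 0.84 ± 0.08 SE. It was picked out because every sample of one set moved one way and every sample of the other the opposite way, and the difference between the sets was not tested. The rule chose members for lower means in the higher order lines, so nothing is read from that side. No share of all probe sets with every single line array above Col was computed. Of 45 control transcripts, 39 differed between the mean of the 8 single lines and Col and 0 to 3 in the higher order lines, and their part in the result was not tested.

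263549_at was lower in acs5C than in acs5D by 1.33 log2 units (acs5C minus acs5D -1.33 ± 0.22 SE, limma, adjusted p = 0.00103), and it was picked out because 2 lines named for the same gene differed by a test of the difference itself. Of 45 control transcripts, 10 differed between these lines, and the adjusted p was 0.0716 with the bioC level as a term. That term rests on acs2B arrays alone, so it cannot separate acs5C and acs5D from their bioC level.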

How the results depend on the processing

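Membership held 93 probe sets at a threshold of 0.3, 11 at 0.5 and 58 without the limit of 1, and 24 to 43 when 1 higher order array was left out, the most without Col replicate 2. A second quantile normalization gave 35, with all 26 among them. Of the counts against Col, members lower in acs2B were 1 with a second quantile normalization, 1 with trend and robust settings and 0 with only 6 arrays. With only 6 arrays acs4A had 3 lower and 1 higher and acs5C 1 higher, and acs5C had 1 higher with trend and robust settings. With the bioC level as a term, counts against the other 7 lines were 1 lower and 1 higher in acs1A, 0 lower in acs4A, 1 lower and 1 higher in acs5C, and 0 higher in acs5D. The term rests on the arrays of acs2B alone. The acs5D counts were 1 lower with a second quantile normalization and 0 higher with trend and robust settings. The cause of these moves was not tested.

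When 1 array was left out, counts against Col ranged as follows. The members lower numbered 2 to 5 in acs1A, 0 to 2 in acs2B, 5 to 11 in acs2C, 3 to 8 in acs4A, 1 to 3 in acs5C, 2 to 3 in acs5D, 2 in acs6E, 7 to 10 in acs9B and 3 to 4 for the mean of the 8 lines. The members higher numbered 3 to 4 in acs1A, 7 to 10 in acs2B, 1 to 3 in acs2C, 1 to 4 in acs4A, 1 to 3 in acs5C, 2 to 4 in acs5D, 9 to 16 in acs6E, 2 in acs9B and 2 to 5 for the mean. Against the other 7 lines the ranges were 0 to 5 lower and 0 to 2 higher in acs1A, 1 to 3 lower and 0 to 3 higher in acs4A, 0 to 1 lower and 1 to 2 higher in acs5C, and 0 in both directions in acs5D. Between acs5C and acs5D 1 to 2 members differed.

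Replicate numbers did not pair the samples by the correlation check. With the replicate number as a block, 15 members higher in acs6E became 14 and 12 lower in acs2C became 13. Calls over all probe sets in acs1A went from 4860 to 4858, and 2 of 101 calls of single members were lost, ARR15 in acs1A against the other 7 lines and AT3G10840 in acs6E. Of the 101 calls, 45 were kept under every alternative run and 0 reversed. For calls against Col, no alternative adjusted for the control transcripts that differed, since the fit with the bioC term left Col out. Calls in acs2B, acs6E, acs2C and acs9B are among them and count as description, since the rule used these lines. Low signals receive a value from RMA even at background, which limits what the dimmer members show.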
